A study of Homo sapiens with 12 samples.

Results

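A set of ligand genes of the transforming growth factor beta (TGF-beta) superfamily were followed in a pair of pancreatic cancer cell lines, with and without a phorbol ester. The 7 genes were BMP2, BMP4, GDF15, INHBA, TGFB1, TGFB2 and TGFB3, chosen by name from 19775 genes with an array probe set (a set of short probes against 1 transcript) that maps to a single symbol. Each gene was read on its probe set with the highest mean, and all 7 were among the 16099 genes tested. BMP4 entered the test only through AsPC-1, where 5 of its 12 arrays passed the filter on low signal. INHBA passed that filter on 8 arrays, the 6 of BxPC-3 and 2 of treated AsPC-1, so it entered through BxPC-3. GDF15 passed on 11 arrays and the other four genes on all 12.

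Affymetrix arrays measured total RNA from BxPC-3 cells, a line from a primary pancreatic tumour, and AsPC-1 cells, a line grown from ascites that the series calls metastatic. Each line is a single established line, held overnight in low serum and then left untreated or given phorbol 12-myristate 13-acetate (PMA), an activator of protein kinase C, at 1 µM for 4 h. Each of the 4 groups held 3 arrays from different cell passages (8, 10 and 12 for AsPC-1, and 7, 9 and 11 for BxPC-3), numbered here as replicates 1, 2 and 3. PMA was dissolved in DMSO, and the labels do not say what the untreated cells received. Neither line carries an engineered change. The series asked how PMA, which it treats as a trigger of invasion, alters expression in each line and between them.

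Ligands of this superfamily are made as precursors that are cut by furin-like proteases and secreted as dimers. They bind pairs of type I and type II receptor kinases, which phosphorylate receptor SMADs, and these enter the nucleus with the shared partner SMAD4. TGF-beta and activin ligands mostly act through SMAD2 and SMAD3, BMP ligands through SMAD1, SMAD5 and SMAD9, and GDF15 signals through a receptor of its own, GFRAL. In pancreatic cancer the pathway is known for frequent loss of SMAD4, and BxPC-3 is known to have lost that gene.

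The 5 epithelial markers (KRT8, KRT18, KRT19, EPCAM and CDH1) summed to signals of 21600 to 29300 on the AsPC-1 arrays and 13600 to 18500 on the BxPC-3 arrays. The 8 markers of leukocytes, endothelial cells and fibroblasts summed to 89.1 to 154 in AsPC-1 and 155 to 243 in BxPC-3, and none was at 0. COL3A1, a fibroblast collagen, lay at 39.2 to 57.7 in BxPC-3 against 0.859 to 11.2 in AsPC-1. In AsPC-1 only the array at 11.2 was above its filter signal, so COL3A1 entered the test through BxPC-3. Of the 6 such markers tested with limma, COL3A1 passed as higher in untreated BxPC-3, where 16.8% of all genes passed as higher and 15.6% as lower. After PMA COL3A1 and COL1A1 (1.86, adjusted p = 0.035) passed as higher and the monocyte marker CD14 (-1.10, adjusted p = 0.0434) as lower. The shares over all genes were then 18.3% and 15.2%. Of 12 fits leaving out 1 array, 8 kept the call of COL1A1 and 4 that of CD14. The part of these markers in the results between lines was not tested. Differences below are on the log2(signal + 3) scale, where the change of a dim gene comes out too small, and p-values measure the spread between cultures of a line at different passages. The treated AsPC-1 array of passage 8 (PMA replicate 1) was unlike its group, with a mean r of 0.921 to the other two against r = 0.964 to the untreated array of its passage. These r values run across genes, which are not independent replicates, and results that rest on that array are also given without it. ACTB control probe sets gave a 3'/5' ratio of 2.56 to 4.14 in untreated BxPC-3 and of 1.84 to 2.02 in treated BxPC-3, and the part of this shift in the BxPC-3 results was not tested.

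**Figure D1:**
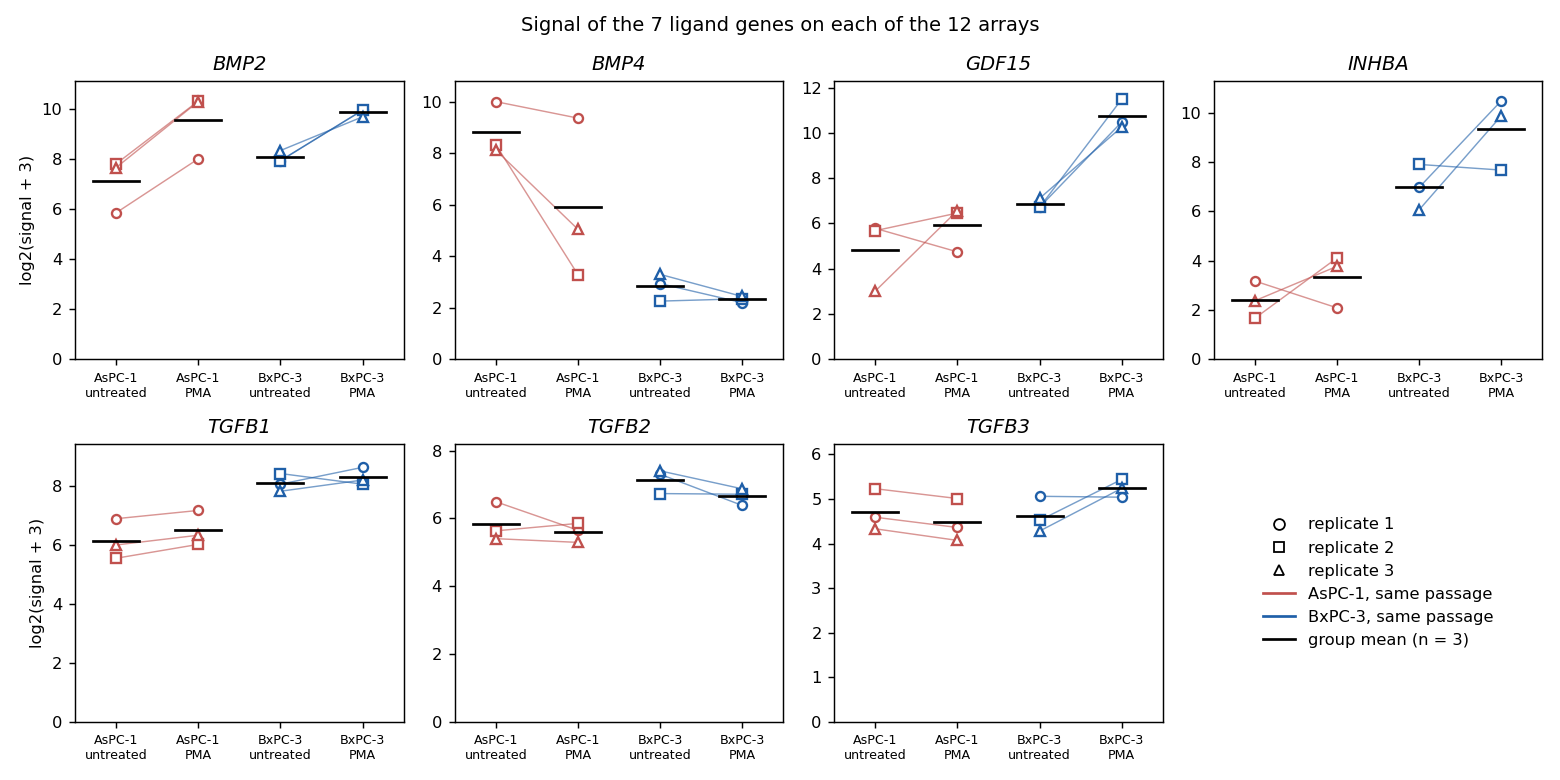
Each panel plots log2(signal + 3) of 1 ligand gene on the 12 arrays, with a line joining the untreated and PMA arrays of 1 passage and a black bar at each group mean (n = 3). BMP2 rises along all 6 lines, BMP4 drops along those of AsPC-1 replicates 2 and 3, and GDF15 rises along all BxPC-3 lines.

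The bone morphogenetic proteins, ligands known from bone formation and epithelial patterning, are described first. BMP2 was higher after PMA in every passage of both lines. In AsPC-1 its signal was 54.6, 221 and 199.8 untreated and 255.5, 1275 and 1256 after PMA, for replicates 1, 2 and 3. The treated and untreated arrays did not overlap, and replicate 1 was the lowest of its group on both sides. The log2 difference was 2.44 ± 0.57 (SE), which passed limma's test (adjusted p = 0.0462), and the signal was 4.68, 5.77 and 6.29 times the untreated one within the passages. In BxPC-3 the signal was 243.4, 240.8 and 321.5 untreated and 985, 991.1 and 822 after PMA, again without overlap. Within passages this was a ratio of 4.05, 4.12 and 2.56. The BxPC-3 difference of 1.79 ± 0.57 did not pass in the fit of all 12 arrays (adjusted p = 0.083).

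Whether BMP2 passed differed between fits. With the passage as a block, both differences passed, at adjusted p = 0.000252 in AsPC-1 and adjusted p = 0.000437 in BxPC-3. Without AsPC-1 PMA replicate 1 they were 3.20 (adjusted p = 0.000121) and 1.79 (adjusted p = 0.00537). Leaving out any other single array took the AsPC-1 call away, with log2 differences of 1.81 to 2.79 and adjusted p up to 0.214. The BxPC-3 difference also passed without AsPC-1 untreated replicate 1 (adjusted p = 0.039). A further BMP2 probe set, 205290_s_at, gave log2 differences of 2.31 in AsPC-1 (adjusted p = 0.0205) and 1.93 in BxPC-3 (adjusted p = 0.021). The difference of the responses, BxPC-3 minus AsPC-1, was -0.64 with a 95% interval of -2.37 to 1.08 (adjusted p = 0.89).

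BMP4 lay lower after PMA in AsPC-1, by very different amounts in the passages. Its AsPC-1 signal was 1023, 318.8 and 275.7 untreated and 654.9, 6.73 and 29.9 after PMA. The signal after PMA was thus 0.0211 and 0.108 of the untreated one in replicates 2 and 3 and 0.64 of it in replicate 1, and the treated and untreated groups overlapped through replicate 1. The 6.73 of replicate 2 lay under that array's filter signal of 9.68. The log2 difference was -2.92 ± 1.08 (adjusted p = 0.187). BMP4 passed as a fall when passage was a block term (adjusted p = 0.0236) and without AsPC-1 PMA replicate 1 (-4.66, adjusted p = 9.08e-05). It was -1.62 without PMA replicate 2, the smallest of the fits that left out 1 array. In BxPC-3 BMP4 lay between 1.58 and 6.77 on all 6 arrays, below every filter signal, so its difference of -0.50 (95% interval -2.83 to 1.82) compares values near the floor of the array. BMP4 had no further probe set, and the 1 it had, 211518_s_at, bears the mark s, for probes that can also hit related transcripts.

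The difference of the BMP4 responses between lines was 2.42 ± 1.53 (adjusted p = 0.705), and 4.15 without AsPC-1 PMA replicate 1 (adjusted p = 0.00953). A fall could not have been seen in BxPC-3, where the signal was below the filter from the start, so this difference carries the AsPC-1 values and does not compare measured responses.

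GDF15, a stress-induced ligand that is secreted by many carcinomas, gave the largest log2 difference with PMA among the 7 genes. In BxPC-3 its signal was 102.1, 102.5 and 135.5 untreated and 1435, 2896 and 1228 after PMA, in replicates 1, 2 and 3. All 3 treated arrays lay above all untreated ones, at 14.1, 28.2 and 9.06 times the untreated signal of the same passage. The log2 difference was 3.90 ± 0.66 (adjusted p = 0.0042), and it stayed past the threshold when each of the 12 arrays was left out in turn (3.53 to 4.15). In AsPC-1 the signal was 52.1, 48.2 and 5.05 untreated and 23.6, 85.1 and 91.8 after PMA. Those groups overlapped, and the passages went different ways, with ratios of 0.453, 1.76 and 18.2. The AsPC-1 difference of 1.10 ± 0.66 did not pass (adjusted p = 0.442), nor without PMA replicate 1 (1.69, adjusted p = 0.0785). It was 0.19 without untreated replicate 3, the array at 5.05.

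The GDF15 responses of the lines differed by 2.81 ± 0.93 (95% interval 0.81 to 4.80), with an unadjusted p = 0.00947 and an adjusted p = 0.345 over all genes. The adjusted value fell under the threshold without AsPC-1 untreated replicate 3 (3.71, adjusted p = 0.046). GDF15 rests on 1 probe set, 221577_x_at, whose mark x stands for probes that can hit other transcripts. The other two GDF15 probe sets were dim on every array, at 0.551 to 5.17 and 1.62 to 14.4, and 229868_s_at changed by 0.29 in BxPC-3 (adjusted p = 0.829).

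INHBA encodes the beta A subunit of activin A and inhibin A. In BxPC-3 its signal was 123.4, 238 and 63.99 untreated and 1445, 202.2 and 948 after PMA. Replicates 1 and 3 reached 11.7 and 14.8 times the untreated signal of their passage and replicate 2 had 0.85 of it, so the groups overlapped. The log2 difference of 2.37 ± 0.72 did not pass (adjusted p = 0.074). It passed without BxPC-3 PMA replicate 2 (3.21, adjusted p = 0.0266). Dropping PMA replicate 1 of the other line from the fit, which changes only the estimated spread, also let it pass (2.37, adjusted p = 0.0218). It was 1.80 without BxPC-3 PMA replicate 1. A further INHBA probe set, 210511_s_at, showed the same split, with 42.6, 78.4 and 19.4 untreated and 488, 71.7 and 233 after PMA, and gave 2.23 (adjusted p = 0.0459).

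In AsPC-1 INHBA was dim on every array, at 0.17 to 5.97 untreated and 1.23 to 14.3 after PMA, with a difference of 0.92 (95% interval -0.64 to 2.48, adjusted p = 0.577). The difference of the responses was 1.45 ± 1.02 (adjusted p = 0.745). A probe set of INHBA that was dim in both lines, 204926_at, stayed at or under 22.7 on all arrays.

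The regions before the transcription starts of the ligand genes were searched because PMA is known to act through AP-1, whose element TGANTCA was first described as the phorbol ester response element. RefSeq promoter windows (GRCh38.p14) were matched for 6 of the 7 genes by symbol, not for BMP2. BMP4 had 3 windows, TGFB3 had 2 and the others 1, each of 250 bases before the start, which leaves elements farther away unseen. Printed are GDF15 and INHBA, which had the highest log2 differences with PMA in BxPC-3 among these 7 genes, and TGFB1, whose signal differed little with PMA. Capitals mark matches to TGANTCA, the cyclic AMP element TGACGTCA, the EGR site GCGTGGGCG, the GC box GGGCGG or the TATA box TATAAA, on either strand. The GDF15 window is chr19:18385908-18386157 on the plus strand, the INHBA window chr7:41703091-41703340 on the minus strand and the TGFB1 window chr19:41353923-41354172 on the minus strand.
GDF15: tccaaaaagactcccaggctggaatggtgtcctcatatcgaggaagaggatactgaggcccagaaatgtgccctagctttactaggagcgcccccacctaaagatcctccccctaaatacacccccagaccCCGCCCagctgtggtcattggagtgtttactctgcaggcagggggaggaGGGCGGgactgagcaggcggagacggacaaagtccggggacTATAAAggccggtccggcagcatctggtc
INHBA: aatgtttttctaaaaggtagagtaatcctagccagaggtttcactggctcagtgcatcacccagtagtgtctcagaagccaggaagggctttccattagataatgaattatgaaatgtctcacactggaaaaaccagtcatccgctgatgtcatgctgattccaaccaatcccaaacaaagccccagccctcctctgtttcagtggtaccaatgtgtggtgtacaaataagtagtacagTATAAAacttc
TGFB1: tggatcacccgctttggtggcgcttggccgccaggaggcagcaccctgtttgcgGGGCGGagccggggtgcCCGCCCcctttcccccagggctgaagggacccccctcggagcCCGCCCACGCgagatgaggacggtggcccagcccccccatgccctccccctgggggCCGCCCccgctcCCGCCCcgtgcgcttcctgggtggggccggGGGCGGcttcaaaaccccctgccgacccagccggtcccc

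None of the windows of the 6 genes held TGANTCA, which 6.57% of all 35116 windows of that length in the table held, and none held TGACGTCA, against 1.65%. The GDF15 window held a TATA box whose first base lies 29 bases before the start, and 2 GC boxes. The INHBA window held a TATA box 11 bases before the start and no GC box. The TGFB1 window held 6 GC boxes and 1 EGR site, which overlaps a GC box and begins 136 bases before the start. EGR sites were found in 0.72% of all windows, GC boxes in 42.6% and TATA boxes in 10.7%. TGFB2 and a TGFB3 window held a TATA box 29 and 30 bases before the start. The BMP4 windows 1 and 3 held GC boxes and window 2 held no motif searched. A match of letters is a description, and binding was not measured here.

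TGFB1, TGFB2 and TGFB3 encode the TGF-beta isoforms themselves, and none of them passed the test with PMA in either line. TGFB1 had signals of 261.2, 336.7 and 221.4 in untreated BxPC-3 and 391.1, 261.4 and 290 after PMA. In AsPC-1 it had 114.8, 43.6 and 60.4 untreated and 140.3, 61.3 and 76.8 after PMA. The groups overlapped in both lines, although each AsPC-1 passage was higher after PMA, at 1.22, 1.41 and 1.27 times untreated. The TGFB1 difference was 0.20 (95% interval -0.57 to 0.97, adjusted p = 0.811) in BxPC-3 and 0.36 (-0.41 to 1.13, adjusted p = 0.676) in AsPC-1. A dim second TGFB1 probe set, at 1.27 to 17.6, gave -0.21 and 0.11. The intervals of the brighter one leave out a TGFB1 change of the size that GDF15 showed in BxPC-3.

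TGFB2 had signals of 155.1, 103.5 and 165.8 in untreated BxPC-3 and 80.1, 101.6 and 113.7 after PMA. In AsPC-1 it went from 87.1, 46.4 and 39.2 to 47.2, 54.7 and 36.2, and the groups overlapped in both lines. The TGFB2 difference was -0.50 (95% interval -1.16 to 0.16, adjusted p = 0.393) in BxPC-3 and -0.24 (-0.90 to 0.42, adjusted p = 0.756) in AsPC-1. Its other four probe sets gave differences of -0.07 to 0.56 in BxPC-3, none past the threshold.

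TGFB3, read on 209747_at, spanned signals of 13.8 to 40.3 over all 12 arrays. In BxPC-3 it had 30.4, 19.9 and 16.4 untreated and 29.9, 40.3 and 34.8 after PMA, a difference of 0.62 (95% interval -0.12 to 1.36, adjusted p = 0.334). Replicates 2 and 3 were 2.02 and 2.13 times their untreated array, and replicate 1 was 0.985 of it. In AsPC-1 each passage was slightly lower, with ratios of 0.832, 0.846 and 0.807 and a difference of -0.24 (adjusted p = 0.793).

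**Figure D2:**
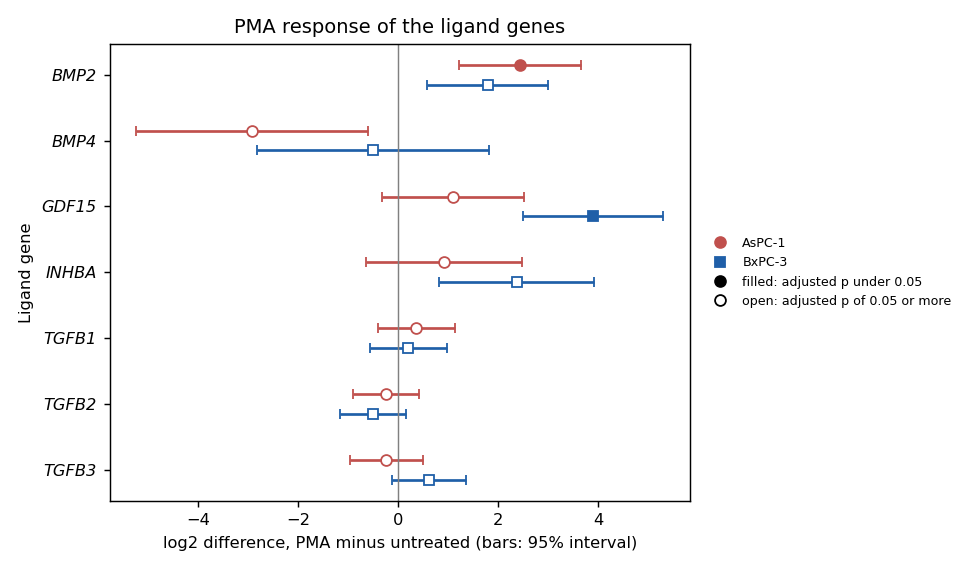
Points are log2 differences, PMA minus untreated, from the fit of all 12 arrays for each ligand gene (rows) in AsPC-1 (red circles) and BxPC-3 (blue squares), with 95% intervals as bars. The filled points are BMP2 in AsPC-1 (2.44) and GDF15 in BxPC-3 (3.90), the differences with an adjusted p under 0.05.

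By count, 1 of the 7 ligand genes passed as higher after PMA in BxPC-3, GDF15, and 6 did not pass. Over all genes tested, 2.52% passed as higher in that comparison and 5.82% in either direction. In AsPC-1 1 gene passed as higher, BMP2, where 1.24% of all genes did and 1.96% in either direction. No fall passed among the 7, against 0.721% of all genes in AsPC-1 and 3.3% in BxPC-3. Treated and untreated arrays did not overlap for 2 of the 7 in BxPC-3 (BMP2 and GDF15), against 38.9% of all genes, and for 1 of the 7 in AsPC-1 (BMP2), against 14.4%. The median log2 difference of the 7 was 0.62 in BxPC-3 and 0.36 in AsPC-1, and that of all genes 0.00 and -0.10. For the difference of the responses limma called 0 of the 7, with 1 at an unadjusted p under 0.05 (GDF15), where 0.491% of all genes passed, 0.317% as higher and 0.174% as lower.

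Between the lines without PMA, BxPC-3 had the higher signal of INHBA, TGFB1, TGFB2 and GDF15, and AsPC-1 that of BMP4. INHBA averaged 142 ± 88.5 (SD, n = 3) in untreated BxPC-3 and 2.77 ± 2.95 in untreated AsPC-1, a log2 difference of 4.59 ± 0.72 (SE, adjusted p = 0.000237). All 3 untreated AsPC-1 arrays were below the filter signal, so the size depends on the pseudocount, at 5.40 with 1 and 2.93 with 16. It was 2.81 on the mean of probe sets. The INHBA probe set 210511_s_at gave 3.46, which passed, and the dim 204926_at gave 0.39, which did not. BMP4 averaged 4.39 ± 2.52 and 539 ± 420, a difference of -6.00 ± 1.08 (adjusted p = 0.000698), with BxPC-3 below the filter (-6.51 with a pseudocount of 1 and -4.52 with 16). TGFB1 averaged 273 ± 58.6 and 72.9 ± 37.2, a difference of 1.95 ± 0.36 (adjusted p = 0.000776). It was read on 203085_s_at, which bears the mark s, as the BMP4 probe set does. The dim second TGFB1 probe set, 203084_at, gave 0.53, without a call there or after PMA. TGFB2 was higher by 1.31 ± 0.31 (adjusted p = 0.00483) and GDF15 by 2.03 ± 0.66 (adjusted p = 0.0294). The GDF15 call was lost without AsPC-1 untreated replicate 3 (1.12, adjusted p = 0.116) and without BxPC-3 untreated replicates 1, 2 or 3 (adjusted p = 0.063, 0.0638 and 0.0912). It was also lost on the mean of probe sets (0.90, adjusted p = 0.0789), with eBayes without trend (adjusted p = 0.0516) and on 229868_s_at (0.31, adjusted p = 0.721).

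BMP2 did not pass between untreated lines, with 269 ± 45.9 in BxPC-3 and 158 ± 90.6 in AsPC-1 (0.97 ± 0.57, adjusted p = 0.218), although its arrays did not overlap. TGFB3, at 22.2 ± 7.27 and 24.2 ± 9.07, had a difference of -0.10 (95% interval -0.83 to 0.64). In all, 4 of the 7 passed as higher in BxPC-3 and 1 as lower, where 16.8% and 15.6% of all genes did, 32.4% in either direction. BMP4 and INHBA are among these 5 and had entered the test through the line where they were high. The lines did not overlap for 6 of the 7, against 50.6% of all genes. TGFB2 was higher in BxPC-3 also on 209909_s_at (2.34, adjusted p = 6.1e-05) and 220407_s_at (1.45, adjusted p = 0.00218), and lower, without a call, on the dim 220406_at (-0.93, adjusted p = 0.131). The dim 209908_s_at gave 0.71, also without a call.

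After PMA the same 5 genes passed in the same directions. BMP4 and INHBA are among them and had entered the test through the line where they were high. INHBA lay at 1.23 to 14.3 in treated AsPC-1, around the filter signal. Its difference was 4.07 to 6.48 over the alternative settings other than leaving out 1 array or taking another single probe set. INHBA differed by 6.04 ± 0.72 (adjusted p = 2.18e-05), GDF15 by 4.83 ± 0.66 (adjusted p = 6.75e-05), TGFB1 by 1.79 ± 0.36 (adjusted p = 0.00143), TGFB2 by 1.05 ± 0.31 (adjusted p = 0.0166) and BMP4 by -3.58 ± 1.08 (adjusted p = 0.0202). Of all genes 18.3% passed as higher and 15.2% as lower, 33.5% in either direction. The lines did not overlap for 6 of the 7, against 43.4% of all genes. The BMP4 difference shrank to -1.84 without AsPC-1 PMA replicate 1 (adjusted p = 0.0218) and lost its call without any 1 of the BxPC-3 PMA arrays (adjusted p = 0.0501 to 0.0573) and with a pseudocount of 16 (-2.30, adjusted p = 0.0612). TGFB2 lost its call without AsPC-1 PMA replicate 3 (0.90, adjusted p = 0.0648) and without BxPC-3 PMA replicates 2 or 3 (adjusted p = 0.0509 and 0.0691). TGFB3 did not overlap between the lines after PMA, at 29.9 to 40.3 against 13.8 to 29.1, and did not pass (0.76 ± 0.34, adjusted p = 0.108). It did in the fit that dropped AsPC-1 PMA replicate 2 (1.02, adjusted p = 0.0492). BMP2 overlapped, with 933 ± 95.9 in BxPC-3 and 929 ± 583 in AsPC-1.

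**Figure D3:**
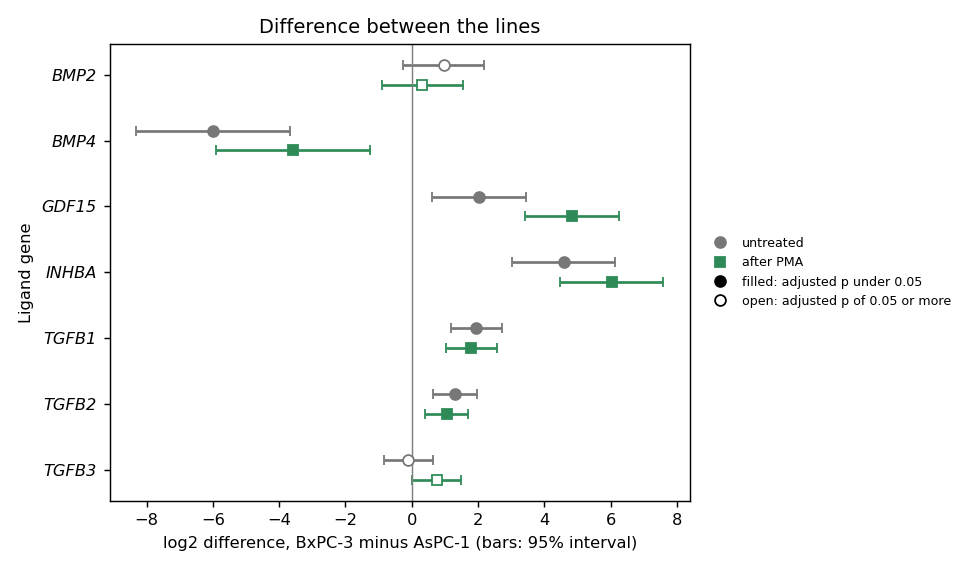
Points are log2 differences, BxPC-3 minus AsPC-1, for each ligand gene (rows), untreated (grey circles) and after PMA (green squares), with 95% intervals as bars and filled points for an adjusted p under 0.05. INHBA (4.59 and 6.04) and BMP4 (-6.00 and -3.58) lie farthest from 0 without PMA, and BMP2 and TGFB3 are open in both.

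Ordered by group mean, BMP2 ran from untreated AsPC-1 (158 ± 90.6) through untreated BxPC-3 (269 ± 45.9) to the treated groups, which lay within 1 SD of each other. Treated AsPC-1 replicate 1 (255.5) lay within the range of untreated BxPC-3 (240.8 to 321.5). BMP4 ran from both BxPC-3 groups (2.00 ± 0.404 and 4.39 ± 2.52) to AsPC-1 after PMA (231 ± 368) and untreated AsPC-1 (539 ± 420). Each neighbouring pair overlapped, with treated AsPC-1 replicate 2 at 6.73 and untreated BxPC-3 replicate 3 at 6.77. GDF15 ran from AsPC-1 untreated (35.1 ± 26.1) and treated (66.8 ± 37.6), which overlapped, through untreated BxPC-3 (113 ± 19.2) to BxPC-3 after PMA (1850 ± 909). INHBA had the same order, from 2.77 ± 2.95 and 8.71 ± 6.72 in AsPC-1 to 142 ± 88.5 and 865 ± 626 in BxPC-3, with overlap within each line. For TGFB1 both AsPC-1 groups (72.9 ± 37.2 and 92.8 ± 41.9) lay below both BxPC-3 groups (273 ± 58.6 and 314 ± 68.1), with overlap within each line. For TGFB2 AsPC-1 (46.0 ± 9.31 and 57.6 ± 25.8) lay below BxPC-3 (98.4 ± 17.0 and 141 ± 33.3). The neighbours AsPC-1 untreated and BxPC-3 treated overlapped, as did the groups within each line. TGFB3 spanned only 20.2 ± 7.99 to 35.0 ± 5.22 over the groups.

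The rest of the pathway was read from fixed lists. Of 15 other superfamily ligands tested, 1 passed as higher with PMA in BxPC-3, NODAL, an embryonic patterning ligand, and 0 passed as lower. The shares over all genes were 2.52% and 3.3%. NODAL went from 1.88, 2.32 and 4.71 to 9.90, 11.6 and 20.0, so the rise (1.48, adjusted p = 0.0287, kept in 6 of 12 fits leaving out 1 array) is between signals near the filter. In AsPC-1 limma called 0 of the 15, with 2 at an unadjusted p under 0.05. Of 12 receptors tested limma called 0 with PMA in either line, with 1 at an unadjusted p under 0.05 in BxPC-3 and 2 in AsPC-1. TGFBR2, the type II TGF-beta receptor, had 2761, 1647 and 1411 in untreated AsPC-1 and 2450, 519.5 and 633.8 after PMA (-0.99, adjusted p = 0.266). It fell when passage was a block term (adjusted p = 0.032) and without PMA replicate 1 (-1.69, adjusted p = 0.000109), as BMP4 did. In that last fit 3 of the 12 receptors fell in AsPC-1, TGFBR2, TGFBR3 (-1.19) and the activin receptor ACVR1B (-0.83), and the receptor ACVR2B fell in BxPC-3 (-1.26, adjusted p = 0.0161). Of all genes 13.5% fell in AsPC-1 and 9.17% in BxPC-3 in that fit.

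Between untreated lines 3 receptors were higher in BxPC-3 and 3 lower, where 16.8% and 15.6% of all genes were. The BMP type I receptor BMPR1B was higher by 4.76, the activin and nodal receptor ACVR1C by 2.48 and the TGF-beta type I receptor TGFBR1 by 1.36. BMPR1B lay at 0.671 to 7.71 in AsPC-1, below the filter signal on every array, and entered the test through BxPC-3. Its difference was 2.51 to 5.38 over the alternative settings. Lower were the co-receptor endoglin (ENG, -1.70) and TGFBR2 (-1.42), calls that 7 and 8 of 12 fits leaving out 1 array kept, and the activin type II receptor ACVR2A (-1.19). ENG lay at 1.78 to 2.94 in untreated BxPC-3, below the filter signal, and entered the test through AsPC-1. After PMA 3 of the 12 were higher and 2 lower, against 18.3% and 15.2% of all genes. Of the 15 other ligands 0 were higher in untreated BxPC-3 and 3 were lower, BMP7 (-1.33), GDF2 (-1.78) and NODAL (-1.55). GDF2 and NODAL lay below the filter signal in untreated BxPC-3, at 1.79 to 3.63 and 1.88 to 4.71. GDF2 entered the test through AsPC-1. After PMA the 3 lower ones were BMP6 (-2.26), BMP7 (-1.35) and INHBC (-1.05), and again 0 were higher.

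Among 22 tested latent-complex proteins, secreted antagonists, proteases and activating integrins, 2 rose with PMA in BxPC-3 and 0 fell. The shares over all genes were 2.52% and 3.3%. FST encodes follistatin, the secreted protein that binds activin A, the INHBA product. Its signal was 2094, 2512 and 1361 in untreated BxPC-3 and 6900, 7466 and 6971 after PMA, a rise of 1.88 ± 0.28 (adjusted p = 0.00208) that held without any single array. In AsPC-1 FST was 30.4, 34.1 and 23.4 untreated and 14.0, 29.0 and 32.7 after PMA. The FST responses of the lines differed by 2.13 (adjusted p = 0.0363, and adjusted p = 0.00401 without AsPC-1 PMA replicate 1), a call that 2 of the 12 fits leaving out 1 array kept. FST was higher after PMA in all 3 BxPC-3 passages, replicate 2 included, where INHBA was not. ITGAV, an integrin subunit of receptors that free TGF-beta from its latent complex, rose by 0.48 (adjusted p = 0.0217, kept in 7 of the 12). In AsPC-1 limma called 0 of the 22, with 3 at an unadjusted p under 0.05.

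Between the untreated lines 3 of these 22 passed as higher in BxPC-3 and 5 as lower, against 16.8% and 15.6% of all genes. FST was higher by 5.92 (adjusted p = 3.62e-09), and the latent TGF-beta binding proteins LTBP4 and LTBP2 by 2.34 and 1.93. NOG, which encodes the BMP antagonist noggin, was lower by 3.56 on the log2 scale (-3.56 ± 0.45, adjusted p = 3.73e-05), with 135.9, 79.7 and 139.2 in AsPC-1 and 6.89, 7.25 and 6.79 in BxPC-3. NOG was below the filter signal on every BxPC-3 array and entered the test through AsPC-1. Its difference was -3.86 to -2.51 over the alternative settings. NOG and BMP4 both had their clear signal in AsPC-1, and FST and INHBA both had theirs in BxPC-3. Not every such gene paired this way. BMP2 had a clear signal in both lines, and the activin antagonist FSTL3 was lower in BxPC-3. A link within these pairs was not tested. NBL1, a further BMP antagonist, was lower by -2.75 and the proprotein convertase PCSK5 by -2.22. FSTL3, an activin antagonist related to follistatin, was lower by -0.83 and lost its call in 2 of the 12 fits leaving out 1 array. PCSK7, a further convertase, was lower by -0.86 on its brightest probe set and at 0.02 on the mean of its probe sets. After PMA 4 of the 22 passed as higher in BxPC-3 and 3 as lower, against 18.3% and 15.2% of all genes. The integrin subunit ITGB8 was among the higher ones (0.78, adjusted p = 0.0416, kept in 4 of 12 fits leaving out 1 array).

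**Figure D4:**
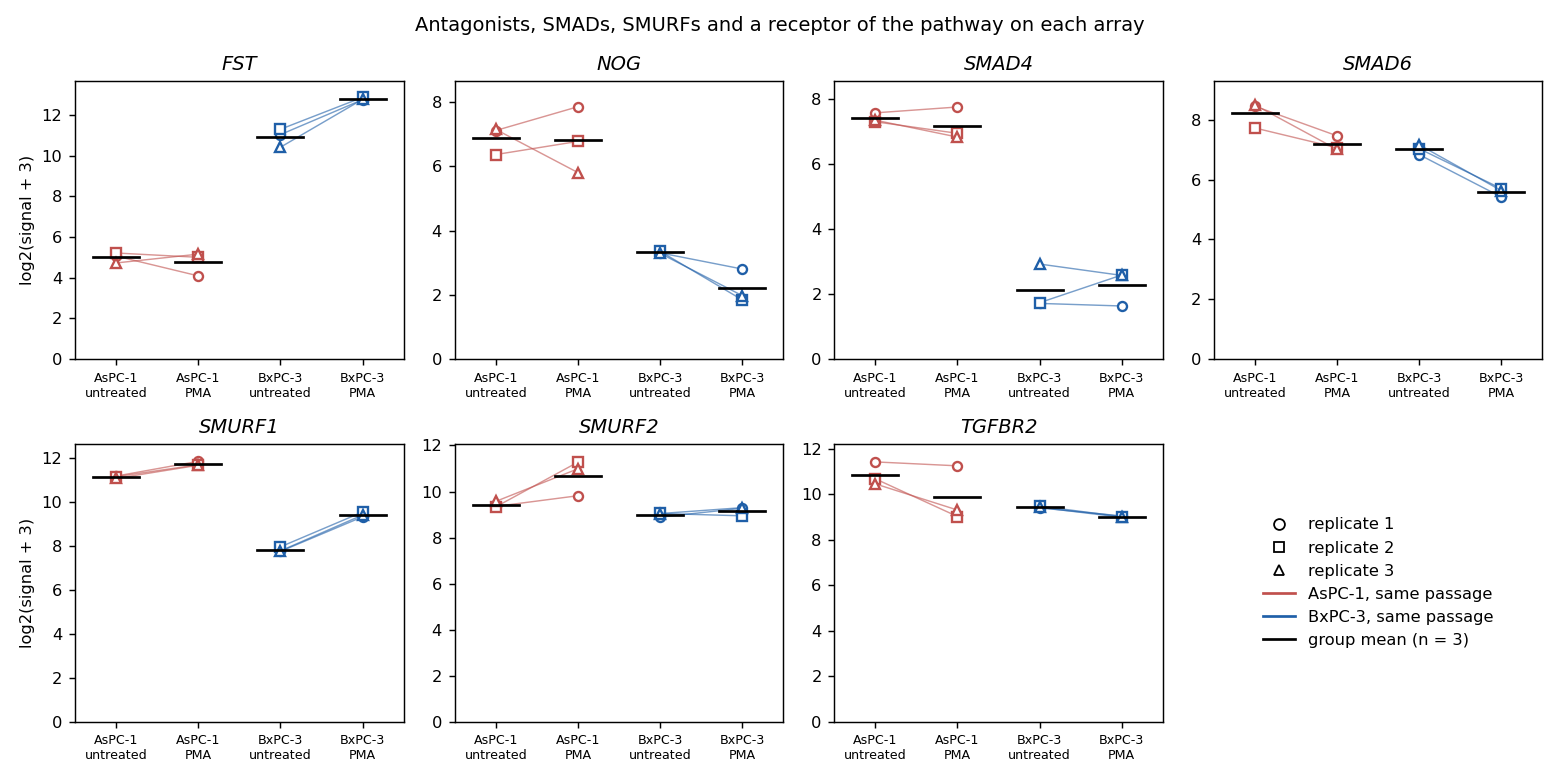
Each panel plots log2(signal + 3) of 1 gene of the pathway on the 12 arrays, with lines joining arrays of 1 passage and black bars at group means (n = 3). FST rises along all BxPC-3 lines, SMAD6 falls along all 6 lines, SMURF1 rises along all 6, and SMAD4 lies near the floor in BxPC-3.

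Of 16 SMADs and regulators, 3 rose and 1 fell with PMA in BxPC-3, and 2 rose and 1 fell in AsPC-1. Over all genes 2.52% rose and 3.3% fell in BxPC-3, and 1.24% rose and 0.721% fell in AsPC-1. The AsPC-1 count became 2 and 3 when passage was a block term, where 2.79% of all genes rose and 2.83% fell, with SMAD5 and PMEPA1 the added falls. Without AsPC-1 PMA replicate 1 it was 3 and 5, where 6.09% of all genes rose and 13.5% fell. SMAD5 (-1.84), SMAD1 (-1.34), BAMBI (-1.20) and PMEPA1 (-1.06) were the added falls there and SKIL (0.70) the added rise. In BxPC-3 that fit had 3 rises and 2 falls, where 5.7% of all genes rose and 9.17% fell. SMAD6, an inhibitory SMAD that restrains BMP signalling, fell in both lines. It had 111.5, 128.5 and 140.8 untreated and 39.9, 49.0 and 46.7 after PMA in BxPC-3 (-1.43 ± 0.24, adjusted p = 0.00422). In AsPC-1 it had 348.9, 209.5 and 359.7 untreated and 174.1, 131.4 and 126.3 after PMA (-1.05 ± 0.24, adjusted p = 0.0435, a call that 2 of the 12 fits leaving out 1 array kept). SMURF1, a ubiquitin ligase that targets BMP SMADs, rose in both. Its signal went from 212.9, 246.2 and 216.4 to 640.2, 745.4 and 677.9 in BxPC-3 (1.60 ± 0.13, adjusted p = 2.47e-05). In AsPC-1 it went from 2322, 2279 and 2156 to 3700, 3320 and 3267 (0.60 ± 0.13, adjusted p = 0.0329, kept in 4 of the 12 such fits). The SMURF1 responses differed by 0.99 (adjusted p = 0.0316, kept in 2 of 12).

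SMURF2, its relative, rose in AsPC-1 from 651.1, 642.4 and 757.7 to 899.2, 2477 and 2027 (1.27 ± 0.28, adjusted p = 0.0395). Replicate 1 was again the treated array nearest the untreated ones, and without it the rise was 1.71 (adjusted p = 6e-06), while 1 of the 12 fits leaving out 1 array kept the call. The corepressors SKI (0.98, adjusted p = 0.0492) and TGIF1 (1.34, adjusted p = 0.0352) rose in BxPC-3, and 3 and 5 of those fits kept the calls. SMAD4 lay at 0.28, 0.331 and 4.60 in untreated BxPC-3 and 0.104, 3.01 and 2.96 after PMA, against 111.4 to 214.4 on the AsPC-1 arrays. The untreated lines differed by -5.29 ± 0.40 in SMAD4 (adjusted p = 2.68e-07), and PMA changed it by 0.14 in BxPC-3 (adjusted p = 0.888) and -0.23 in AsPC-1 (adjusted p = 0.832). SMAD4 was below the filter signal on every BxPC-3 array and entered the test through AsPC-1. Its difference between the untreated lines was -6.32 to -2.29 over the alternative settings. BAMBI, a decoy receptor, was lower in untreated BxPC-3 by -3.38 (adjusted p = 2.08e-06), and SMAD2 was higher by 1.45. In all, 4 of the 16 were higher in untreated BxPC-3, with SKI (1.35), SMAD9 (1.35, kept in 5 of 12 fits leaving out 1 array) and the corepressor SKIL (0.71, kept in 9). SMAD9 was below the filter signal on every AsPC-1 array and every treated BxPC-3 array. It thus entered the test only through untreated BxPC-3, the group where it was called higher. The 5 lower ones were SMAD4, BAMBI, SMURF1 (-3.31, adjusted p = 4.4e-10), SMAD6 (-1.22) and TGIF1 (-0.97, kept in 6). Over all genes 16.8% were higher and 15.6% lower. After PMA 3 were higher, SMAD3 (0.60, kept in 7) among them, and 5 lower, SMURF2 (-1.52) among them, against 18.3% and 15.2%.

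Of 11 tested genes commonly induced by TGF-beta or BMP signalling, limma called 0 with PMA, with 1 in each line at an unadjusted p under 0.05. ID2 and ID3, inhibitors of differentiation that BMP signals are known to induce, had differences of 1.02 and 1.40 in AsPC-1 (adjusted p = 0.358 and 0.227). ID3 lay at 0.792 to 3.08 in untreated AsPC-1, below the filter signal. ID2 was 59.96, 61.61 and 67.11 untreated and 40.7, 209.6 and 255.1 after PMA there, so replicates 2 and 3 were higher than untreated and replicate 1 was not. Without PMA replicate 1 both ID2 (1.83, adjusted p = 0.000986) and ID3 (2.21, adjusted p = 0.00146) passed. In BxPC-3 ID2 differed by 1.03 (adjusted p = 0.289, and adjusted p = 0.0245 without that AsPC-1 array). HEY1, a transcriptional repressor, was 116.5, 131.7 and 105.1 in untreated BxPC-3 and 59.96, 64.6 and 68.9 after PMA, lower in every passage (-0.84, adjusted p = 0.0806, and adjusted p = 0.0398 without that AsPC-1 array). ID1 was 1260, 1184 and 1259 in untreated BxPC-3 and 887.3, 1421 and 1205 after PMA (-0.10, adjusted p = 0.846). Between untreated lines 5 of the 11 were higher in BxPC-3 and 2 lower, against 16.8% and 15.6% of all genes. FN1 (fibronectin, 4.08) and HEY1 (2.64) were the highest, and CCN2 (-2.93) and ID2 (-2.79) the lower ones. FN1 was below the filter signal of every AsPC-1 array and entered through BxPC-3, at 2.24 to 4.63 over the alternative settings. TAGLN (1.17), ID1 (0.88) and ID3 (1.65) were the other higher ones, and 10, 12 and 4 of 12 fits leaving out 1 array kept their calls. ID3 entered the test through BxPC-3. After PMA 3 of the 11 were higher, COL1A1 (1.86) among them, and 3 lower, MSX2 (-0.94, kept in 2 of the 12) among them. The shares over all genes were then 18.3% and 15.2%.

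Likeness of pattern was measured for each ligand gene with a call, as the root mean square difference between log2 profiles over the 12 arrays, each centred on its own mean. It describes these arrays only, which share lines and treatment. The genes nearest to BMP2 were STX11, SERPINB8 and C3orf52, at 0.357, 0.393 and 0.406, where the BMP2 profile itself had an SD of 1.38. STX11 differed with PMA by 2.06 in AsPC-1 and 1.83 in BxPC-3. Nearest to BMP4 (SD 3.08) were PKDCC, HOTAIR and RHOU, at 0.954, 1.03 and 1.08, and PKDCC differed by -2.75 with PMA in AsPC-1 and by -7.27 between untreated lines. Nearest to GDF15 (SD 2.49) were RGS4, LINC00622 and RASSF9, at 0.899, 0.922 and 0.927, of which RGS4 differed by 4.25 with PMA in BxPC-3 and 0.58 in AsPC-1. Nearest to INHBA (SD 3.07) were TSLP (0.839), LINC02910 (0.89) and COXFA4L3 (0.918). PLTP, SPINT1 and IFI16 lay nearest to TGFB1, at 0.204 to 0.259, and CCDC85C, CCDC152 and IFT80 nearest to TGFB2, at 0.213 to 0.244.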

How the data were processed

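Total RNA from 12 samples was hybridised to Affymetrix arrays, 4 groups of 3. The authors deposited signal intensity on a linear scale for 54675 probe sets, made with MAS5 (no version named) per the submitters' processing notes. The trimmed mean (2% off each end) of the probe sets other than controls lay between 99.38 and 99.606, so the arrays share a scale. Detection calls were not used, and low signals carry no test against background, while the number of arrays limits the precision.

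Control probe sets (62) were left out. Of the others, 41091 had 1 gene symbol, 1801 several and 11721 none, and 41037 matched the RefSeq gene table (GRCh38.p14, names only). Per gene the probe set with the highest mean log2(signal + 3) was kept. The test took genes whose signal exceeded percentile 40 of its array (8.18 to 10.2) on at least 3 arrays. Group means were fitted with limma 3.58.1 in R 4.3.3 (eBayes with intensity trend, 8 residual degrees of freedom), two-sided, with Benjamini-Hochberg adjustment over all 16099 genes and a threshold of 0.05. An exact test of 3 against 3 cannot go below p = 0.1. The fit was tested on simulated data. Figures used matplotlib 3.10.9 in Python 3.11.15.

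Within each line the labels give the treated and the untreated array of one number the same passage, so the numbers pair them. Across genes, the deviations of the AsPC-1 pairs from their group means had r = 0.411, 0.206 and 0.157, those of the BxPC-3 pairs r = -0.054, -0.126 and -0.059. Arrays of different lines share no passage. The ligand genes and lists were chosen with earlier results of these data known. All 7 ligand genes, listed genes past the threshold, SMAD4 and the 3 nearest profiles per ligand gene are named. Not every call of a listed gene between the lines is given with its value. Listed genes that passed only in an alternative fit, and PMA values of ID1 and ITGB8, were added after their values were seen, as was the fit without both AsPC-1 arrays of passage 8.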

Additional observations from a re-analysis of the deposited data

How the results depend on the processing

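Of 848 comparisons of a ligand gene's value with that under an alternative setting, 764 kept both direction and side of the threshold, 63 crossed the threshold (41 lost a call and 22 gained one) and 25 changed sign, 4 of them both. With PMA in BxPC-3 the number of ligand genes (members) past the threshold was 1, where 5.82% of all genes passed. It was 2 with a pseudocount of 16 (7.11% of all genes) and 3 with the BxPC-3 arrays alone (22%). It was 2 with the passage as a replicate block (10.2%) and 3 without both AsPC-1 passage 8 arrays (23.4%). It ranged from 1 to 3 when 1 array was left out, at 2.02% to 14.9% of all genes. In AsPC-1 it was 1, where 1.96% of all genes passed. It was 0 after quantile normalization, with no low-value filter, on the mean of probe sets, with eBayes without trend and on the AsPC-1 arrays alone. In those limma fits 2 ligand genes were at an unadjusted p under 0.05, but 1 in the last. The number was 2 with the passage block (5.62% of all genes) and 3 without both passage 8 arrays (21.4%). It was 0 to 2 when 1 array was left out (0.379% to 19.5%). For the difference of the responses it was 0, and 0 to 1 with 1 array left out (0.0559% to 4.43% of all genes). It was 2 without both passage 8 arrays (BMP2 at -0.78 and BMP4 at 3.56), where 7.37% of all genes passed. Between lines it was 5, at 4 to 5 untreated and 3 to 6 after PMA with 1 array left out. Of all genes 25.6% to 40.6% passed untreated and 26.7% to 40.6% after PMA in those fits. Of the 25 sign changes 3 were of values that had passed and 1 passes after the change. These and a listed gene were TGFB2 on 220406_at (-0.93 untreated, -0.04 after PMA), GDF15 after PMA on 229868_s_at (-0.19), BMP2 after PMA without both passage 8 arrays (-0.44, adjusted p = 0.0182), and PCSK7 untreated on the mean of probe sets (0.02). The other sign changes were of values that passed in neither fit, 12 of TGFB2, 4 of TGFB1, 3 of TGFB3, 1 of GDF15 and 1 of BMP2 (-0.44 after PMA without AsPC-1 PMA replicate 1, adjusted p = 0.436). The cause was not tested. Over all genes, 937 passed with PMA in BxPC-3, and 325 to 2394 with 1 array left out, 3535 on its arrays alone, 1645 with the passage block and 3769 without both passage 8 arrays. In AsPC-1 316 passed, and 61 to 3147, 0 (1526 at an unadjusted p under 0.05 by limma), 904 and 3442 in that order, with 151 on the mean of probe sets and 113 without trend. The difference of responses called 79 genes, 9 to 713 with 1 array left out, 126 with the block and 1187 without passage 8. Median centring moved the share of rising calls in AsPC-1 from 63.3% to 76.4%. The replicate number as a block between lines changed no call of a ligand gene. The GDF15 probe set 221576_at did not pass the filter and was not run.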

Other observations

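The AsPC-1 arrays of passage 8 stood apart in several of these genes before PMA as well as after it. Untreated, BMP2 was 54.6 in passage 8 against 221 and 199.8 in passages 10 and 12, BMP4 1023 against 318.8 and 275.7, and TGFB1 114.8 against 43.6 and 60.4. TGFBR2 was 2761 against 1647 and 1411. ITGB8, an integrin subunit that helps free TGF-beta from its latent complex, was 3396 against 1702 and 1730 untreated, and 3291 against 1705 and 1636 after PMA. Without both arrays of that passage, a limma fit chosen after seeing these values, PMA changed BMP2 by 2.57 (adjusted p = 1.07e-07), BMP4 by -4.07 (adjusted p = 9.35e-05) and GDF15 by 2.17 (adjusted p = 0.0183) in AsPC-1. That fit kept only the AsPC-1 arrays of passages 10 and 12. Their untreated GDF15 signals were 48.2 and 5.05, the lower one below its filter signal of 8.95. In that fit the BxPC-3 differences of BMP2 (1.79, adjusted p = 5.09e-07) and INHBA (2.37, adjusted p = 0.00946) passed too. Over all genes it called 21.4% with PMA in AsPC-1 and 23.4% in BxPC-3, against 1.96% and 5.82% in the main fit. The arrays were left out because these genes stood apart on them, so these calls are no separate evidence.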
